A study of Mus musculus with 12 samples.

Results

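The 9 genes of secreted carriers and their uptake receptors were followed through 12 libraries: the carrier proteins Afp, Ttr and Rbp4, the apolipoproteins Apoa1, Apob, Apom and Apoe, and the receptor pair Amn and Cubn. They were chosen by name, as entries of the deposited expression table whose RefSeq identifier belongs to these symbols. Each symbol had 1 entry, giving 9 of the 19708 entries of the table. Transcript 3′ ends were sequenced from C57BL/6 mouse embryonic stem cells (ESCs) held in the naive state in serum-free N2B27 medium with LIF and the inhibitors CHIR99021 and PD0325901 (2i), and from embryoid bodies (EBs), aggregates of differentiating cells grown from ESCs without attachment in medium with serum. Both were wild type (WT) or Mettl3 knockout (KO). Mettl3 is the catalytic subunit of the enzyme that places N6-methyladenosine (m6A) on mRNA. All groups, the untreated 0 h groups aside, had been in actinomycin, which blocks transcription, for 4 or 8 h. There was 1 library for each combination of genotype, cell type and time. Nothing in the labels gives the deleted part of Mettl3, the number of KO lines or cultures, or the day on which EBs were taken.

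The visceral endoderm is the epithelium that surrounds the early mouse embryo and later lines the yolk sac. It feeds the embryo before the placenta and liver work, and it makes many of the plasma proteins that the fetal liver makes afterwards. Apical receptors, among them cubilin (Cubn) bound to its partner amnionless (Amn) and the large receptor megalin (Lrp2), take up carriers from the surrounding fluid. Lipids leave the cells on lipoproteins built on Apob, and retinol leaves bound to Rbp4, which travels with transthyretin (Ttr). Afp is the classical marker secreted by this tissue.

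The promoters of the secreted members are shown because most of these genes were high in the same 3 libraries, those of WT EBs. RefSeq promoter windows of GRCm38.p6, 250 bases before to 50 after an annotated start, were found for 8 of the 9 genes, all but Ttr. The letters TGTTTNC are a loose form of the core bound by FOXA factors, with N for any base. They stood on either strand in a window of 6 of the 8 genes (Afp, Apoa1, Apob, Apom, Rbp4 and Apoe), against 20.5% of 32851 windows of the same length. In Apom the base at N was T. Apoe has 3 annotated starts and Rbp4 has 2, which gives them more windows to hold a match. GATAAG, the core of the zinc-finger factors Gata4 and Gata6, stood on either strand in those of Apoa1 and Apob and in 7.44% of all. TATAAA, on the gene's own strand, stood in those of Afp, Apob, Apoe and Rbp4 and in 8.32% of all. The windows of Amn and Cubn held none of the 3 motifs. A match is a run of letters and not a measured binding site. The 4 windows below belong to a carrier and to 3 apolipoproteins, 5′ to 3′ on the gene's strand, with matches in capitals. They lie at chr5:90490464-90490763 (+) for Afp, chr9:46228380-46228679 (+) for Apoa1, chr12:7977427-7977726 (+) for Apob and chr17:35131752-35132051 (-) for Apom.
Afp: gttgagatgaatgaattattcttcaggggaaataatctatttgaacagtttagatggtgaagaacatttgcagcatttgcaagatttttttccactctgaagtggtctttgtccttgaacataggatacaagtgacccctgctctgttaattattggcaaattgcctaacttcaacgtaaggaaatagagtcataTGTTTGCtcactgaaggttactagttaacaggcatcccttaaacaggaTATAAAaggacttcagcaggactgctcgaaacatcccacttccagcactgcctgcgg
Apoa1: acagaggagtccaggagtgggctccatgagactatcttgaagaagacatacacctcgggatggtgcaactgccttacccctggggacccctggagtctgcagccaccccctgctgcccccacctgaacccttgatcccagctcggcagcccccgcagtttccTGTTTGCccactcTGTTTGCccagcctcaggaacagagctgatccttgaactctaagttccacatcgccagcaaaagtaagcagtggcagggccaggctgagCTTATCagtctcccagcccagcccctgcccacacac
Apob: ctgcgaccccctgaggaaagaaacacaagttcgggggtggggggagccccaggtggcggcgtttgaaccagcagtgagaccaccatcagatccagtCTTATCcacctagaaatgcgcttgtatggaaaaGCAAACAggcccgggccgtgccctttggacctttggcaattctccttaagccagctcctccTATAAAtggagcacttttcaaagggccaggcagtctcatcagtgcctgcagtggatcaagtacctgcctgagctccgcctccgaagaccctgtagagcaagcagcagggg
Apom: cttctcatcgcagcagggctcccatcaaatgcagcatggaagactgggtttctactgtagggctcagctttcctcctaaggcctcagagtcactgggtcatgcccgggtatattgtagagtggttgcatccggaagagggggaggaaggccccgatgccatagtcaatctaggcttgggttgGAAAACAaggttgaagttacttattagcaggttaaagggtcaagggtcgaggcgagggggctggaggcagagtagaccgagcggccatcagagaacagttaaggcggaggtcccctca

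Levels below are in the units of the deposited table, which are normalized but not set to equal totals. At 8 h the column total of WT EBs was 44.2% of that at 0 h and the total of KO EBs 88.3%, while those of ESCs stayed between 91.2% and 106%. The libraries hold 208874 to 666805 read equivalents, an inference from the smallest steps of the values. One read equivalent was worth 10.6 to 32.7 units. A level of 0 therefore allows up to 68.9 to 98.1 units in ESC libraries and 31.8 to 52.8 in EB libraries (3 read equivalents, counting error only). Families of genes that should be silent in these cells, such as olfactory receptors, had a 95th percentile of 18.8 to 30.7 in ESC libraries and 44.2 to 71.8 in EB libraries. Mettl3 itself read 251, 64.8 and 113 at 0, 4 and 8 h in WT ESCs, 98.1, 65.4 and 41.8 in KO ESCs, 175, 86.0 and 77.4 in WT EBs and 16.8, 40.7 and 83.9 in KO EBs, and KO minus WT did not pass the test in either cell type (limma adjusted p = 0.311 in ESCs and 0.175 in EBs). The labels do not say whether the 3′ tag lies outside the deleted part. A tag outside it would not check the labels.

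The carriers Afp and Ttr were among the strongest of the 9 genes in WT EBs and were near background in KO EBs. Afp, a fetal albumin relative, read 2449.5, 1879 and 1643.5 in WT EBs at 0, 4 and 8 h, and 55.4, 68.0 and 58.9 in KO EBs. In ESCs it read 37.2, 49.5 and 119.7 (WT) and 54.8, 66.1 and 47.7 (KO). The 3 WT EB libraries stood above the other 9. The 0 h WT level in EBs was 44.2 times the KO level (95% counting interval 18.9 to 134). Over the 3 times, KO minus WT was -4.83 ± 0.38 (limma SE, adjusted p = 2.56e-06) on the scale log2(level + 8.58), with the pseudocount of 8.58 set at 1 ppm of an average column total.

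Ttr, which carries thyroxine and the Rbp4-retinol complex, read 2643, 1739 and 1334 in WT EBs and 7.43, 16.0 and 35.8 in KO EBs. It read 59.7, 76.7 and 0 in WT ESCs and 60.9, 19.0 and 26.8 in KO ESCs. All 3 KO EB levels lay under the 95th percentile of the silent families in their libraries. The KO level at 0 h is less than 1 read equivalent, so the ratio at 0 h is given only by the lower end of its counting interval, 48.8. KO minus WT in EBs was -6.15 ± 0.56 (log2, limma adjusted p = 9.28e-06), the largest difference among the 9 genes.

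Rbp4, the plasma carrier of retinol, read 556, 642 and 507 in WT EBs and 31.8, 19.0 and 56.3 in KO EBs. In ESCs it read 44.1, 0 and 22.9 (WT) and 24.1, 131 and 27.9 (KO), so the KO ESC library of 4 h stood above the other ESC libraries. The difference in EBs was -3.79 ± 0.73 (log2, limma adjusted p = 0.00372), and no EB library of one genotype overlapped those of the other.

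Apoa1, the main protein of high-density lipoprotein, read 925, 861 and 843 in WT EBs and 31.8, 52.2 and 8.82 in KO EBs. ESC levels were 0, 22.8 and 28.8 (WT) and 25.1, 0 and 23.6 (KO). WT EBs stood far above the other 9 libraries, and KO minus WT in EBs was -4.66 ± 0.68 (log2, limma adjusted p = 0.000436). Its neighbour Apoa4, added here after its values were seen and too low on average to be tested, was listed at 0 in all 6 ESC libraries, at 79.7, 96.6 and 114 in WT EBs and at 0, 6.61 and 30.8 in KO EBs.

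Apom, which carries sphingosine-1-phosphate on lipoproteins, read 501, 480.4 and 313 in WT EBs and 19.7, 47.3 and 20.7 in KO EBs. KO minus WT in EBs was -3.58 ± 0.67 (log2, limma adjusted p = 0.00304). None of the 3 WT ESC libraries had any signal for Apom, while KO ESCs read 47.3, 20.3 and 141, where the 141 at 8 h is the only level above 3 read equivalents. KO minus WT in ESCs was 2.86 ± 0.67 (adjusted p = 0.0104), a value that hangs on the pseudocount because the WT group is at 0. Without the WT ESC library of 8 h the adjusted p was 0.0514, and without the KO ESC library of 0 or 8 h the difference was 1.75 with adjusted p = 0.199 and 0.214.

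Apob, the structural protein of very-low-density lipoprotein, read 402, 191 and 199 in WT EBs and 15.5, 63.9 and 56.8 in KO EBs. ESC levels were 45.9, 59.4 and 0 (WT) and 0, 43.2 and 53.1 (KO). The EB groups did not overlap, with a KO minus WT difference of -2.41 ± 0.68 (log2, limma adjusted p = 0.0357).

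Apoe, a ligand of the LDL receptor family that many cell types secrete, had a different pattern from the other 8 genes. It read 5669, 6076 and 6641 in WT ESCs, 2802, 2232 and 2594 in KO ESCs, 7724, 6443 and 3478 in WT EBs and 1873, 2909 and 2327 in KO EBs. All 12 values lay far above the silent families, and WT lay above KO without overlap in both cell types. KO minus WT was -1.27 ± 0.20 in ESCs (log2, limma, adjusted p = 0.000647), and the EB value was -1.25 ± 0.20 (adjusted p = 0.000737). These differences did not pass a test between cell types (0.02 ± 0.28, adjusted p = 0.987). WT EBs minus WT ESCs was -0.13 ± 0.20 (adjusted p = 0.639) on the deposited scale, but 0.78 with adjusted p = 0.00694 when column totals were set equal, and 0.78 with adjusted p = 0.00397 when ribosomal protein genes were set to equal sums. At 0 h WT EBs read 1.36 times the WT ESC level (95% counting interval 1.17 to 1.59).

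Amn and Cubn form the receptor that takes up intrinsic factor with its vitamin and many other carriers. Amn read 739, 599 and 547 in WT EBs and 59.0, 95.5 and 62.0 in KO EBs, with 101, 85.6 and 85.1 in WT ESCs and 159.9, 71.3 and 133 in KO ESCs. The KO EB levels overlapped the ESC levels, and KO minus WT in EBs was -2.996 ± 0.412 (log2, limma adjusted p = 0.000264). Cubn read 583, 349 and 304 in WT EBs and 53.1, 37.3 and 75.4 in KO EBs, with 26.6, 0 and 111 in WT ESCs and 19.1, 20.3 and 75.6 in KO ESCs. Its difference in EBs was -2.71 ± 0.72 (adjusted p = 0.0266), again with no overlap between the EB groups.

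**Figure D1:**
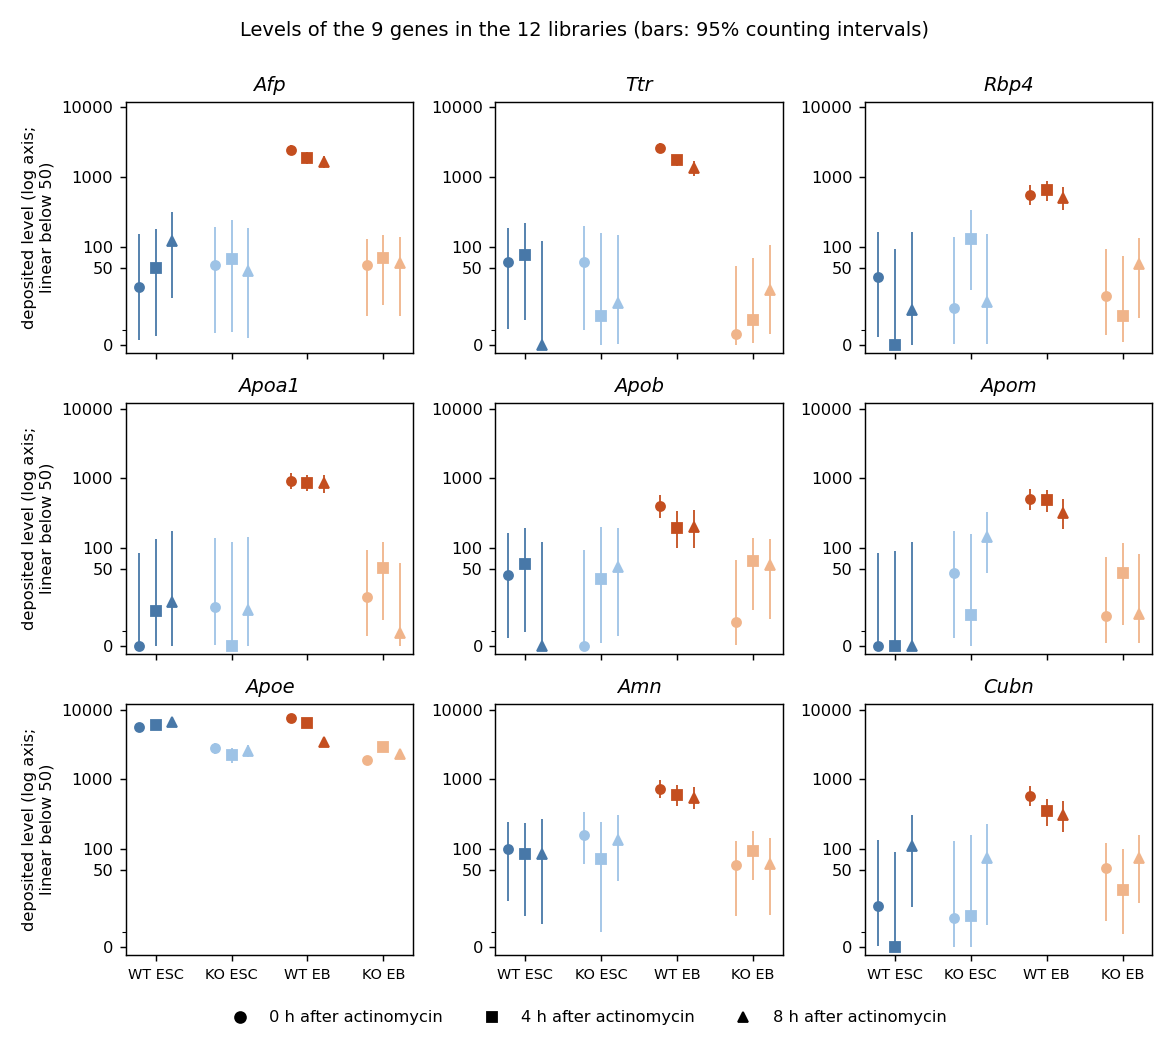
Deposited level of each of the 9 genes in every library, on an axis that is linear near 0 and logarithmic above, with 1 point per library, bars for 95% counting intervals, groups by cell type and genotype, and circles, squares and triangles for 0, 4 and 8 h in actinomycin. All but Apoe stand high in the 3 WT EB libraries (from 191 for Apob to 2643 for Ttr) and low elsewhere, while Apoe lies between 1873 and 7724 in all 12.

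All 9 genes passed the test as lower in KO EBs, where 1.56% of the 12704 genes tested were called lower. The median difference over the 9 was -3.58, beside 0.09 over all genes tested. Other scalings moved the median of all genes to -0.14 (equal column totals), -0.09 (median-ratio size factors) and -0.32 (ribosomal protein genes at equal sums), and all 9 genes were called lower under each. In all 9 the WT EB libraries lay above the KO EB libraries without overlap, as in 7.4% of genes tested. The filter on low levels was met by Ttr, Rbp4, Apoa1, Apob and Apom only through their WT EB levels, so for these 5 a difference was built into being tested. With no such filter 7 of the 9 were called, with Apob at adjusted p = 0.0759 and Cubn at 0.0726. Afp and Ttr were called under each of the 22 alternative settings and left-out libraries that were run. Leaving out the WT EB library of 0 h or of 8 h gave 5 calls, the KO EB library of 0 h gave 4, that of 8 h gave 3, the 4 h library of either genotype gave 7, and both EB libraries of 8 h together gave 2. Calls of all genes as lower fell in these runs too, from 198 in the full fit. They were 73 and 76 without the WT EB library of 0 h or 8 h, and 49 and 48 without that of KO EBs. Without the 4 h library they were 117 (WT) and 116 (KO), and 27 without both of 8 h. Leaving out any one library of 0 h or 8 h in EBs kept all 9 differences negative but ended the calls of Apob, Apom and Cubn. In bulk RNA, fewer cells of a type and less RNA per cell cannot be told apart.

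**Figure D2:**
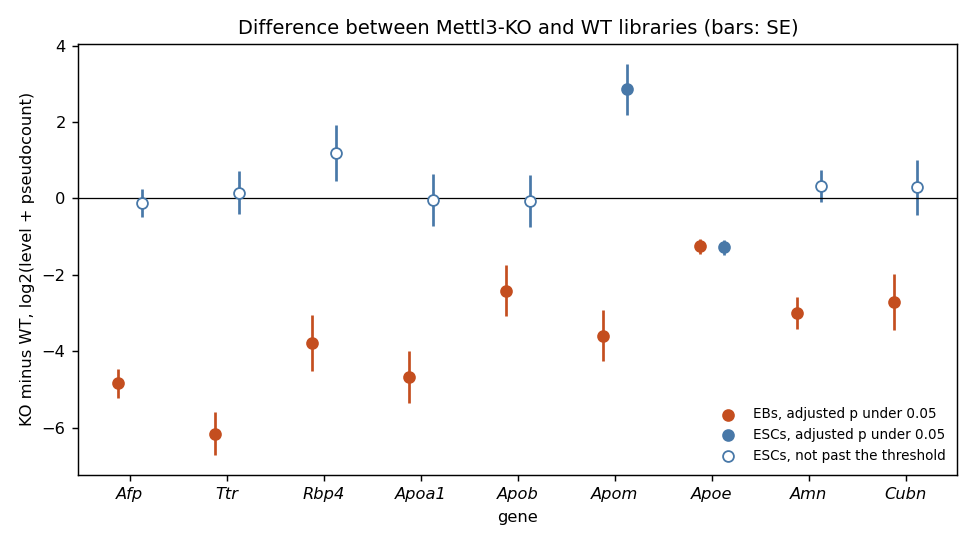
KO minus WT in EBs and in ESCs for each gene, as the limma difference in log2(level + 8.58) with bars of 1 SE. In EBs the 9 values run from -6.15 (Ttr) to -1.25 (Apoe), while in ESCs only Apoe (-1.27) and Apom (2.86) passed the test.

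In ESCs 1 of the 9 genes was called lower (Apoe, against 3.27% of genes tested) and 1 higher (Apom, against 10.9%). Without the WT ESC library of 0 h Cubn was called higher in KO ESCs as well (2.25, adjusted p = 0.0485). The other 7 in the full fit ran from -0.12 (Afp) to 1.18 (Rbp4), on levels that mostly lay under 3 read equivalents. Of all genes tested, 8.12% had WT above KO without overlap in ESCs, and 14.8% the reverse, each of which held for 1 of the 9. A test of KO minus WT in EBs against KO minus WT in ESCs called 6 genes as lower, beside 1.35% of genes tested: Apom, Ttr, Rbp4, Afp, Apoa1 and Amn. Cubn (-3.01 ± 1.02, adjusted p = 0.144) and Apob (-2.33 ± 0.96, adjusted p = 0.238) did not pass. With no filter on low levels Apoa1 (adjusted p = 0.0536) and Rbp4 (0.0612) were not called. The count was 3 without any 1 of the EB libraries of 0 h or 8 h (Apom, Ttr and Afp), and 0 without both EB libraries of 8 h. Calls of all genes as lower fell in these runs too, from 172 to between 54 and 72, and to 27. Apoa1 also lost its call without the WT EB library of 4 h or an ESC library of 0 h or 8 h of either genotype, Rbp4 without an EB library of 4 h, and Amn when KO ESCs lacked their 0 h or 8 h library, while Cubn gained one without the WT ESC library of 0 h or 8 h.

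In WT cells 8 of the 9 genes were called higher in EBs than in ESCs, where 3.49% of genes tested were, and the exception was Apoe. For Ttr, Rbp4, Apoa1, Apob and Apom, tested only through their WT EB levels, the filter favoured such a call. Over all genes the median was -0.50 on the deposited scale and 0.34 with equal column totals. The differences were 5.65 for Apom, 5.64 for Ttr, 5.36 for Apoa1, 4.82 for Afp, 4.57 for Rbp4, 3.61 for Cubn, 3.02 for Apob and 2.67 for Amn on the log2 scale, those of Apom and Apoa1 depending on the pseudocount because their ESC levels are at or near 0. Apob lost its call without the WT ESC library of 0 h or 8 h, and Apob and Cubn without the WT EB library of 0 h or 8 h. In KO cells none of the 9 passed the limma test between EBs and ESCs, and none had an unadjusted p under 0.05, where 24.1% of genes tested were called in either direction and 0.929% as higher. These comparisons share libraries and are not independent of each other. Among the 8 genes without Apoe, all 8 were above the silent families' 95th percentile in each WT EB library, 3, 5 and 5 were in KO EBs at 0, 4 and 8 h, 6, 5 and 3 in WT ESCs and 6, 4 and 7 in KO ESCs. These counts cannot be compared between cell types, because the percentile stands at fewer read equivalents in ESC libraries. Ttr passed it on 1 read equivalent in KO ESCs at 8 h but not on 3 in KO EBs at 8 h. No share of all genes above it is given here.

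After 8 h of actinomycin the 9 genes had kept more of their level in WT EBs than 77.3% to 98.2% of the genes with at least 400 units at 0 h. The share of the 0 h level left at 8 h was 91.2% for Apoa1 (95% counting interval 61.3% to 135%) and 91.2% for Rbp4 (54.2% to 152%). It was 67.1% for Afp (51.5% to 87.0%) and 50.5% for Ttr (38.1% to 66.4%). For Amn it was 74.1%, for Apom 62.4%, for Cubn 52.2%, for Apob 49.4% and for Apoe 45.0% (38.0% to 53.1%). The median over the 9 was 81.0% at 4 h and 62.4% at 8 h, beside 62.7% and 31.4% over the 3746 genes with at least 400 units at 0 h. All 9 kept more than the column total did (44.2%) at 8 h, as did 23.9% of those 3746 genes, and the counting interval lay above the column total for 4 of the 9. These are ratios of single libraries with no test. With totals set equal the median share left at 8 h was 141%, so that the shares hold only relative to other transcripts and are not half-lives. High shares were not particular to the 9 genes. In WT EBs the summed level of the 8 parietal endoderm markers given below read 20203 at 0 h and 16401 at 8 h. The sum of 10 visceral endoderm markers read 11746 and 7451.

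**Figure D3:**
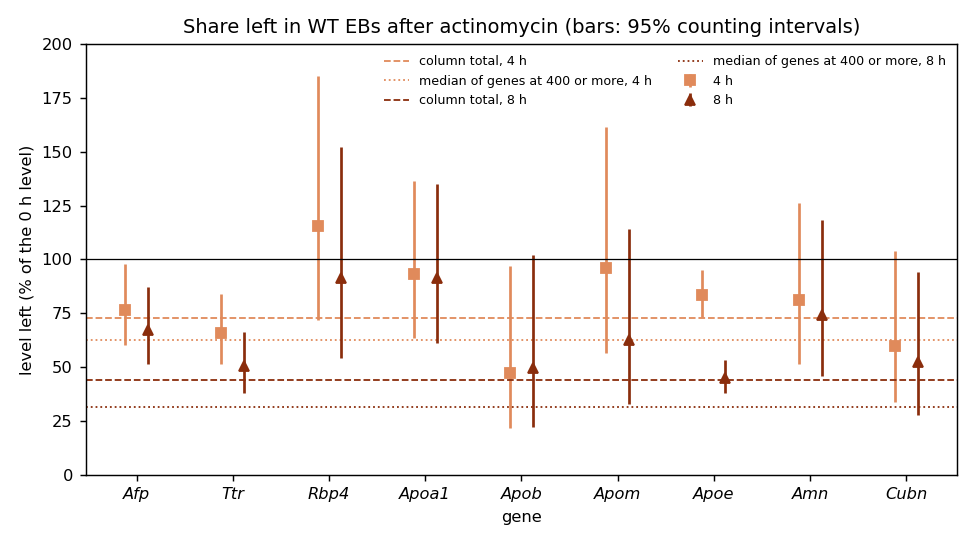
Share of the 0 h level left at 4 and 8 h in WT EBs for each gene, with 95% counting intervals, beside the column total and the median of the 3746 genes with at least 400 units at 0 h. At 8 h the 9 genes lie between 45.0% and 91.2%, all above the median gene at 31.4%.

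Of the slopes over hours, that of Apoe in WT EBs was called, at -0.14 ± 0.04 per h (log2, limma adjusted p = 0.0212), where 26.7% of genes tested were called falling. It was 0.00 with column totals set equal, and the call was lost without the WT EB library of 0 h (adjusted p = 0.11) or 8 h (0.792). In KO EBs Apoe read 2909 units at 4 h, 155% of the 0 h level (128% to 189%, counting error only), and its slope did not pass. KO minus WT slope for Apoe in EBs was 0.18 ± 0.06 (adjusted p = 0.128). None of the 9 slopes was called by limma in KO EBs (0% of genes tested were), in WT ESCs (5.51%) or in KO ESCs (0.0315%), and none of the slope differences in EBs (1.19%) or ESCs (0.0394%). At an unadjusted p under 0.05 there were 0 in KO EBs, 3 in WT ESCs, 1 in KO ESCs, 1 in the EB slope difference and 1 in that of ESCs. No share of all genes at this unadjusted threshold is given here, so these counts have no background to be judged by. The 3 in WT ESCs (Apob, Ttr and Afp) rest on 0 to 3.66 read equivalents per library. Without the WT ESC library of 4 h the slope of Ttr in WT ESCs was called (-0.37 per h, adjusted p = 0.0327). The levels outside WT EBs, Apoe aside, leave few reads to follow.

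**Figure D4:**
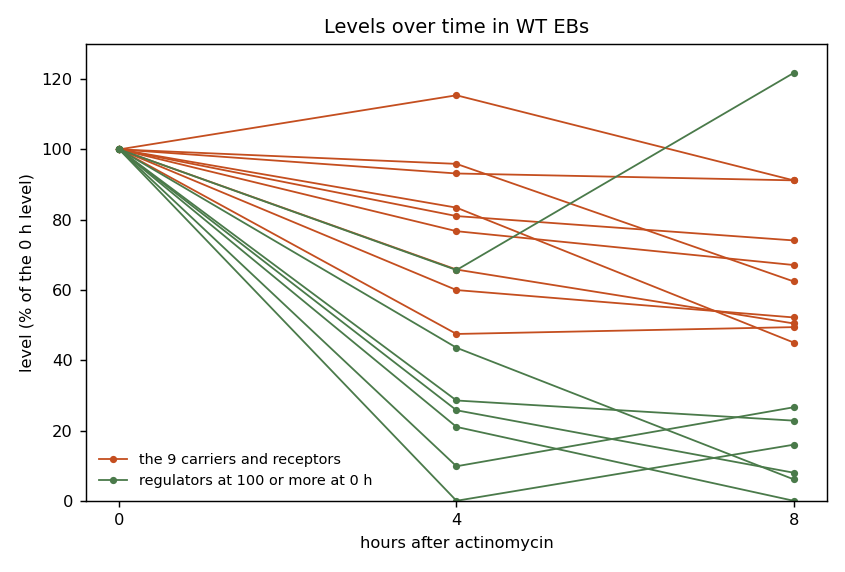
Level over hours in actinomycin in WT EBs, as a percentage of the 0 h level in single libraries, for the 9 genes (orange) and for regulators of extraembryonic endoderm with at least 100 units at 0 h (green). The 9 genes keep 45.0% to 91.2% at 8 h, the 7 regulators 0% to 122% with a median of 16.0%.

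Transcription factors listed as regulators of extraembryonic endoderm, a list not limited to factors that specify it, were sparsely read. Of 15 regulators considered, 8 were tested, and none passed KO minus WT in EBs with limma, 2 having an unadjusted p under 0.05: Gata4 (-1.43 ± 0.53, adjusted p = 0.119) and, in the opposite direction, Cebpa (1.85 ± 0.71, adjusted p = 0.137). The median difference of the 8 was -0.25. Gata6, Foxa2, Sox7 and Sox17 were too low on average to be tested. In WT EBs at 0 h Gata4 read 395, Gata6 164, Foxa2 202, Sox7 176 and Sox17 237, and in KO EBs at 0 h they read 61.6, 13.6, 10.6, 0 and 11.2 in that order. These are single libraries with no test. At 4 h the WT levels were 113, 16.1, 42.5, 45.4 and 103 and the KO levels 53.3, 74.6, 74.6, 8.53 and 17.1, with Gata6 and Foxa2 higher in KO. At 8 h the WT levels were 90.1, 43.6, 0, 14.1 and 14.4 and the KO levels 47.7, 27.2, 0, 7.87 and 0. The 7 with at least 100 units in WT EBs at 0 h (Gata4, Gata6, Foxa2, Sox7, Sox17, Hhex and Zbtb20) stood on 7.34 to 26.8 read equivalents each, and choosing them by their 0 h level favours a later fall. They kept a median of 25.8% at 4 h and 16.0% at 8 h, with Zbtb20 at 122% at 8 h. The difference from the carriers was not tested.

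Related genes, in lists chosen with earlier results of these data known, moved in part with the 9. Of 12 tested genes among 21 other apolipoproteins and lipoprotein assembly factors, 3 were lower in KO EBs and none higher, with a median of 0.18. The chaperone-like apolipoprotein Clu differed by -2.55 ± 0.33 (KO minus WT, log2, limma adjusted p = 0.000186) in EBs and by 1.83 ± 0.33 (adjusted p = 0.00222) in ESCs. Apoa2 differed by -1.11 ± 0.32 in EBs (adjusted p = 0.0400), and P4hb, the disulfide isomerase that is also a subunit of the lipid transfer protein, by -0.84 ± 0.16 (adjusted p = 0.00383). Its partner Mttp differed by -1.72 ± 0.53 (adjusted p = 0.0561) and Apoc1, next to Apoe in the genome, by 0.43 ± 0.25 (adjusted p = 0.379). Among other secreted carriers, 1 of 6 tested of 19 listed was lower, the fibrinogen chain Fgb, at 245, 128 and 186 in WT EBs and 0, 0 and 7.87 in KO EBs. Fgb met the filter on low levels only through its WT EB levels, which favoured such a call.

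Of 12 tested endocytic receptors and adaptors, of 15 listed, 3 were lower in KO EBs and 1 was higher, with a median of -0.22. Over all 12704 genes tested, 198 were called lower and 973 higher, so 1 higher of 12 is near the share of all genes. Lrp2, the megalin partner of cubilin, read 535, 324 and 318 in WT EBs and 54.1, 30.1 and 35.8 in KO EBs, a difference of -3.03 ± 0.43 (limma adjusted p = 0.000314). The adaptor Dab2, which links these receptors to clathrin, differed by -3.94 ± 0.57 and the megalin chaperone Lrpap1 by -1.06 ± 0.24. Cd320, the cellular receptor for transcobalamin, differed by 1.30 ± 0.24 and was the 1 called higher. Of 6 tested retinoid-handling genes of 12 listed, 1 was lower, the retinoic acid hydroxylase Cyp26a1, at -3.56 ± 0.94 (limma adjusted p = 0.0255). Dab2 and Cyp26a1 met the filter on low levels only through their WT EB levels, which favoured a call as lower.

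Markers of several cell types differed between the EB groups as well. Summed levels of 10 visceral endoderm markers ran from 7451 to 11746 for WT EBs against 291 to 386 for KO EBs, and 6 of the 6 tested were lower in KO EBs, led by Spink1 (-7.01) and S100g (-6.04). Dab2 and Lrp2 stand in this list too, and Dab2 met the filter on low levels only through its WT EB levels. Spink1 read 5053 and S100g 3901 of the 11746 units in WT EBs at 0 h. Cer1, 1 of the 10, was at 0 in all 3 WT EB libraries. Soat2, Slc2a2 and Ihh were also too low on average to be tested. Soat2 was higher in KO EBs, at 51.8, 52.9 and 46.3 against 37.1, 34.5 and 36.9 in WT EBs. Slc2a2 read 13.8, 42.5 and 48.5 in WT and 10.6, 20.0 and 47.7 in KO EBs. Ihh read 237, 31.9 and 14.4 in WT and 0, 0 and 14.8 in KO EBs. Summed levels of 8 parietal endoderm markers, of the other extraembryonic endoderm, were 16401 to 21325 against 1573 to 1873, with 7 of 8 lower. Some of the 7 met the filter on low levels only through their WT EB levels, which favoured such calls. Of 6 naive ESC markers, 4 were called higher in KO EBs, where 973 of the 12704 genes tested were. Sums of the 6 were 5121 to 14586 in KO EBs against 847 to 9672 in WT EBs. The calls average over hours in actinomycin, during which the WT sum fell from 9672 to 847 and the KO sum from 14586 to 5121. At 0 h Esrrb read 1852 in WT and 1771 in KO EBs. Nanog (963 and 2542), Zfp42 (1717 and 2877) and Klf2 (3836 and 5969) were higher in KO at 0 h, in single libraries with no test. The 8 definitive and gut endoderm markers summed to 790.1 to 1116 in WT against 199 to 289.9 in KO EBs. Gkn1 (-4.69) was the 1 gene tested and was called lower. Gkn1 met the filter on low levels only through its WT EB levels, which favoured such a call. The 7 fetal hepatocyte markers, none of them high enough to be tested, summed to 144 to 288 in WT against 104 to 153 in KO EBs, with albumin at 0, 55.4 and 34.5 in WT EBs. The 5 macrophage markers found summed to 195 to 361 and 239 to 304, with Lyz2 at 0 in all 12 libraries and neither of 2 tested called, and the 5 glial markers to 125 to 243 and 41.1 to 108 with the 1 tested not called. The part of these cell types in the levels of the 9 genes was not tested.

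**Figure D5:**
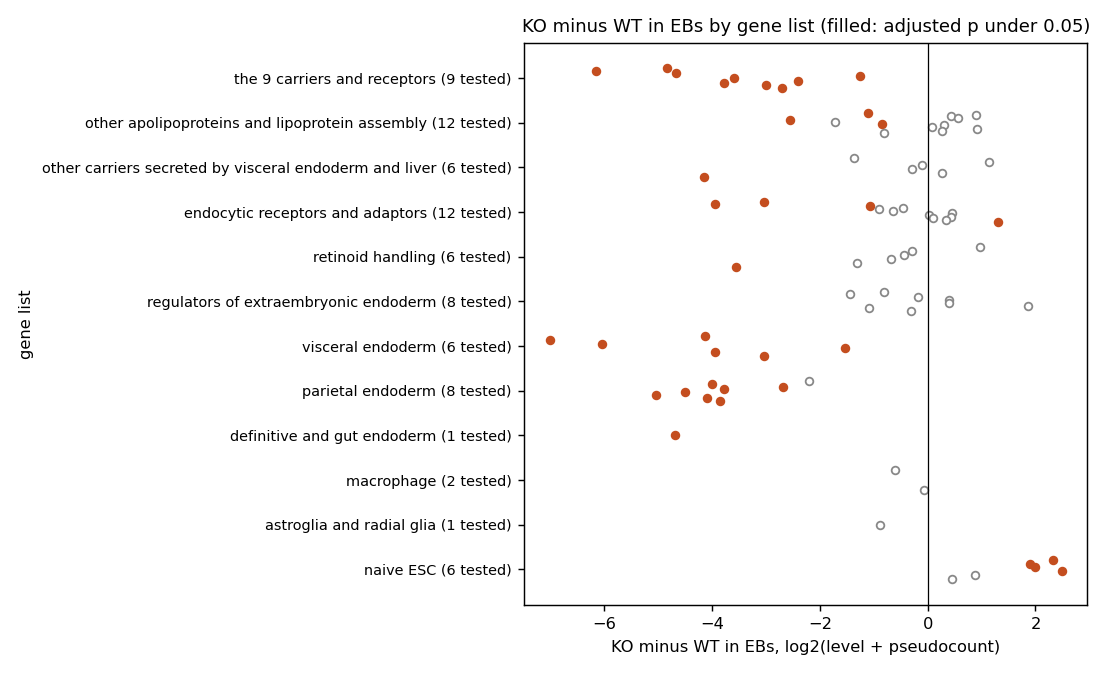
KO minus WT in EBs for the tested genes of each list, as the limma difference in log2(level + 8.58), with 1 point per gene, filled where the adjusted p was under 0.05. The 9 carriers and receptors lie between -6.15 and -1.25, beside visceral endoderm markers down to -7.01 and naive ESC markers that lie above 0.

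As a description of shape over the 12 libraries, the genes outside the 9 whose log2 levels ran most like Afp were Col4a1 (Pearson r = 0.97), Clic6 (0.96), Ctsl (0.95), Ctsh (0.95) and Cited1 (0.94). Those most like Apoe were Nagk, Pi4ka, Fn1 and Slc9a3r1 (each 0.90) and Pipox (0.89). Among the 8 genes without Apoe, r ran from 0.55 (Apob with Cubn) to 0.95 (Afp with Apoa1), and with Apoe it ran from 0.08 (Apom) to 0.51 (Amn). The points share libraries, and 3 WT EB libraries stand apart in most of these genes.

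The genes lie on 8 chromosomes of GRCm38: Afp (NM_007423) at chr5:90490714-90508907 (+), Ttr (NM_013697) at chr18:20664209-20674326 (+), Rbp4 (NM_001159487) at chr19:38116620-38125321 (-), Apoa1 (NM_009692) at chr9:46228630-46230469 (+), Apob (NM_009693) at chr12:7977629-8016839 (+), Apom (NM_018816) at chr17:35128997-35131801 (-), Apoe (NM_009696) at chr7:19696244-19701310 (-), Amn (NM_033603) at chr12:111271096-111276426 (+) and Cubn (NM_001081084) at chr2:13276338-13491876 (-). Annotated transcripts on the opposite strand overlap Afp, Ttr and Cubn, and the sources used here do not state whether counting used the strand. The letters GGACT, a common context of m6A, occurred once in the transcripts of Afp, Ttr, Rbp4, Apoa1, Apom and Apoe, 2 times in Amn, 15 times in the long transcript of Apob and 14 times in that of Cubn. Per kilobase the 9 ranged from 0.485 (Afp) to 1.24 (Cubn), around a median of 1.03 over 19462 transcripts. The m6A mark itself was not measured in these libraries.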

How the data were processed

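Levels were taken from the 12 libraries of 3′-end poly(A) RNA, grouped by their titles, with 1 library per group. The authors deposited a normalized signal per RefSeq entry. Tools listed in the submitters' processing notes are Bowtie, Bowtie2 (2.1.0) and CASAVA (1.8.2), with the build mm10. Counting and scaling are not given in the sources used here. Of 19746 entries, 19535 were matched to symbols by RefSeq and 98 by GENCODE, and 38 identical duplicates were dropped. Low values fall on library-specific steps, and 50 steps were taken as 1 read equivalent. The 95% intervals reflect counting alone, because PCR copies could not be told from molecules.

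Tests used limma (3.58.1, under R 4.3.3) with log2(level + 8.58) as response, for the 12704 genes whose mean over 12 libraries reached 42.9, with a straight line over hours in each of 4 conditions, trended variances and Benjamini-Hochberg adjustment over all genes tested (threshold 0.05). Level differences are means over 0, 4 and 8 h and so include loss during actinomycin. The fit leaves 4 residual degrees of freedom: p-values measure scatter between libraries around a line, which may be technical, and not between cultures. The pseudocount shrinks the changes of low genes. The script was tested on simulated data. The genes and lists were chosen with earlier results of these data known. All 9 genes are named, with Mettl3 as the targeted gene, and from each list up to 4 genes with the largest called difference in EBs and up to 2 of the highest uncalled. Mttp, Apoa4, Cer1, Soat2, Slc2a2, Ihh, albumin, Lyz2 and regulators other than Gata4 and Zbtb20 are named outside that rule, after their values were seen. So are Cdx2, Vil1, Cxcr4, Cdh17 and Tff3. Some listed regulators are not reported here. Apoc2, Cp and Cd68 were not found in the table. Alternatives changed the pseudocount, filter, scaling, variance prior, background and time terms, or left out libraries.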

Additional observations from a re-analysis of the deposited data

Results flagged for a closer look

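KO minus WT differed between EBs and ESCs for 6 of the 9 genes, by the limma interaction term over all genes tested (adjusted p under 0.05), beside 1.35% of genes called lower. The difference, EBs minus ESCs on the log2 scale, was -6.44 for Apom (adjusted p = 0.00123), -6.29 for Ttr (0.000354), -4.97 for Rbp4 (0.0157), -4.72 for Afp (0.000128), -4.62 for Apoa1 (0.0160) and -3.32 for Amn (0.00449). Part of the value of Apom comes from WT ESCs, where it was listed at 0 in all 3 libraries. Apom, Ttr, Rbp4 and Apoa1 were tested only through their WT EB levels, and with no filter on low levels Apoa1 (adjusted p = 0.0536) and Rbp4 (0.0612) were not called. The count fell to 3 without any 1 EB library of 0 h or 8 h, and to 0 without both EB libraries of 8 h. Calls of all genes as lower fell as well, from 172 to between 54 and 72, and to 27.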

How the results depend on the processing

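No paired analysis was possible because each group has 1 library and the labels carry no replicate numbers. Leaving out 1 library leaves a condition with 2 points on its line, so that it adds nothing to the spread and is assumed to scatter like the other conditions. Of the 9 genes called lower in KO EBs, 5 were called without the variance trend, 2 without both EB libraries of 8 h and 3 to 9 when 1 library was left out. Among the 22 alternatives the call was lost in 11 for Apob and in 10 for Cubn, and all differences stayed negative. In ESCs the count of 2 became 1 without both EB libraries of 8 h and 1 to 3 with 1 library left out. For EBs against ESCs in WT it was 6 to 8 with 1 left out. The count of 6 for the difference between cell types became 3 without the variance trend, 0 without both EB libraries of 8 h and 3 to 6 with 1 left out. The slope count in WT EBs, 1, became 0 with equal column totals, median-ratio size factors, ribosomal protein sums, no variance trend or without both EB libraries of 8 h, and was 0 to 1 with 1 left out. In WT ESCs, 0 became 1 (Ttr) with a pseudocount of 0.2 ppm, and was 0 to 1 with 1 left out. Apoe changed sign for WT EBs minus ESCs with equal column totals (0.78) and ribosomal sums (0.78), and for the WT EB slope (0.0033 and 0.012). The median share left at 8 h was 141%, 134% and 148% under equal totals, median ratios and ribosomal sums. Over all genes, calls in EBs split into 973 higher and 198 lower, against 635 and 359 with equal totals, 656 and 271 with median ratios and 394 and 608 with ribosomal sums. In total 1171 calls became 353 without the trend, 503 with additive time terms and 129 without both EB libraries of 8 h. The causes were not tested. Depth limits the levels of 8 genes outside WT EBs, which rest on few read equivalents.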
